A study of Mus musculus with 8 samples.

Results

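Ribosome biogenesis and RNA polymerase I (Pol I) genes were followed in mouse embryonic fibroblasts (MEFs) exposed to RHPS4, a G-quadruplex ligand, that is, a compound that binds the 4-stranded folds of guanine-rich nucleic acid. The group holds 39 of the 24460 genes in the count files, and all 39 passed the filter on low counts, which left 14296 genes. The genes were selected on their normalized counts at 0, 2 and 10 µM, by asking whether the group was higher at 2 µM and lower at 10 µM, as Rrs1 is. That pattern therefore chose the members, and their values in the 3 comparisons are a description. Where members past a threshold are counted, the count stands beside the share of all tested genes, and nothing is read from it. Adjusted p values are given for 134 other genes of the same pathway, which are not members.

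Ribosomes are built in the nucleolus, where Pol I transcribes a long precursor of the ribosomal RNAs (pre-rRNA). Small nucleolar ribonucleoproteins (snoRNPs) modify this precursor, and large assemblies of further proteins fold it, cut it and join it with ribosomal proteins into the small and the large subunit. Growing fibroblasts spend much of their biosynthesis on this pathway, and many of its genes are known targets of the transcription factor Myc.

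RNA-Seq was performed on total RNA from wild type MEFs cultured with 0 µM RHPS4 (3 libraries), 2 µM RHPS4 (3 libraries) or 10 µM RHPS4 (2 libraries). All groups were grown in the same medium, and no other agent distinguishes them in the labels. The labels do not say which of the study's exposure times applies to these libraries, nor whether the libraries of a group came from separate cultures, so that p values measure the spread between these libraries only. Nuclear ribosomal RNA was depleted before strand-specific libraries were made, and the counts are read fragments per gene.

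Libraries held between 10455965 and 26688121 counts in total, and a count of 0 allows levels of up to 3 counts, or 0.112 to 0.287 CPM (counts scaled to a common library size) depending on the library. This limit covers counting error only. The members had 128 to 44271 counts per library. Levels below are CPM with edgeR's TMM factors, which ran from 0.923 to 0.960 at 0 µM, from 0.987 to 1.01 at 2 µM and from 1.09 to 1.10 at 10 µM. The share of mitochondrial DNA features in the counts went from between 13.2% and 14.4% to between 5.33% and 6.32%. In CPM of total counts, without TMM factors, the 7 fibroblast markers together held 11101 to 12401 in every library, and 15 of the 16 markers of other cell types stayed under 10, the exception being Map2 at 39.4 to 50.9. The neural marker Tubb3 moved with concentration, from 2.11 to 2.96 at 0 and 2 µM to 8.36 and 7.59 at 10 µM. Its part in the results was not tested. In bulk RNA, fewer cells of a kind and less RNA per cell cannot be told apart. The first 0 µM library, the smallest, stood apart for these genes, since 30 of the 39 members had their highest untreated level there, against 44.2% of all tested genes.

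With TMM scaling, the members as a group were higher at 2 µM RHPS4 and lower at 10 µM than in untreated MEFs, by modest amounts. With total counts their median log2 fold change at 10 µM against untreated MEFs was 0.0895, the other sign. For each library the median over the 39 members of log2(CPM / mean CPM at 0 µM) was taken. It was 0.09, −0.05 and −0.06 in the 0 µM libraries, 0.35, 0.25 and 0.29 in the 2 µM libraries, and −0.15 and −0.13 in the 10 µM libraries, with a pooled SD between libraries of 0.0601. The 3 groups of libraries did not overlap in this median, the pattern for which the members were selected. The same median over all tested genes stayed between −0.02 and 0.01, near 0, where TMM scaling tends to hold it. The summed level of the members went the same way, with 7222, 6357 and 6465 CPM at 0 µM, 8332, 7733 and 7963 CPM at 2 µM and 5915 and 5879 CPM at 10 µM.

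**Figure D1:**
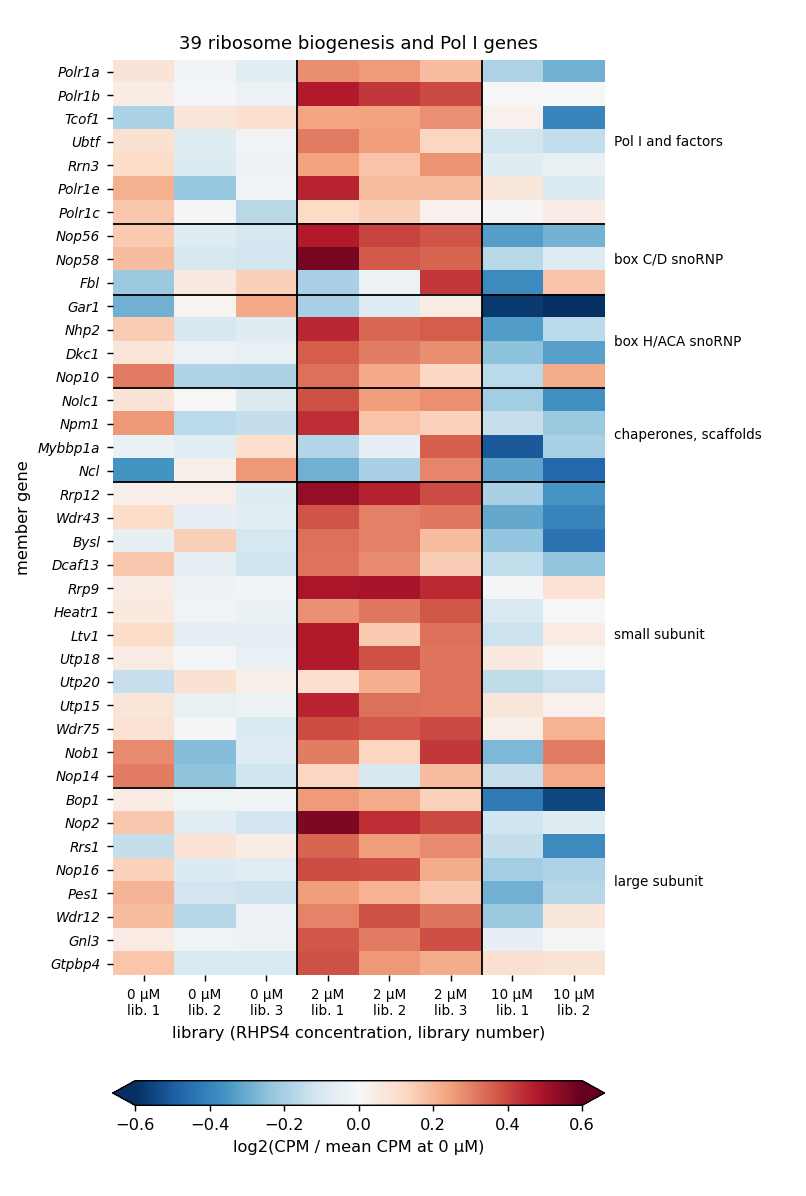
Level of each of the 39 members (rows, grouped by role) in each of the 8 libraries (columns) as log2(CPM / mean CPM at 0 µM), with red for higher and blue for lower. Most rows are red in the 3 libraries at 2 µM and pale or blue in both libraries at 10 µM, while Gar1, Ncl, Fbl, Mybbp1a, Nop14 and Nob1 vary between libraries of a group.

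Between 2 and 0 µM the median log2 fold change of the members was 0.30, and 37 of 39 had the higher mean at 2 µM. Over all tested genes the median was −0.01. By edgeR's quasi-likelihood test 16 of the 39 passed an adjusted p under 0.05, all higher, beside 1.51% of all tested genes, and 27 of 39 had every 2 µM library above every 0 µM library, beside 12.7% of all tested genes. None of the 39 passed the stricter rule of the study, an adjusted p under 0.01 and a fold over 1.5, beside 0.119% of all tested genes called higher by it. The 16 calls were 28 without the first 0 µM library and 3, 1, 2 and 1 without the second 0 µM, the third 0 µM, the first 2 µM and the second 2 µM library.

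Between 10 and 0 µM the members lay lower by a median of −0.13, with 29 of 39 lower, and the median of all tested genes was 0.02. By role the medians ran from −0.03 for the 13 small subunit genes to −0.31 for the 4 nucleolar chaperones and scaffolds, a difference that was not tested. Here 6 of the 39 passed the adjusted p, all lower, beside 7.11% of all tested genes, 15 had both 10 µM libraries below every 0 µM library, beside 20.0%, and 0 passed the rule of the study, beside 1.14%. The 6 calls were 10, 3, 3 and 3 without the first 0 µM, the second 0 µM, the third 0 µM and the second 2 µM library. Over all tested genes the 1017 called lower became 1718, 637, 522 and 724 in these fits. Without the first or the second 10 µM library, which leaves 1 at 10 µM, the members' median was −0.16 and −0.18. With total counts in place of TMM the median of all tested genes shifted to 0.23 and that of the members to 0.0895. Then 8 members were called, 6 higher and 2 lower, beside 3766 higher and 327 lower of the 14296 tested genes. The sign of the members' change at 10 µM thus depended on the scaling. The members' median lay 0.14 below that of all tested genes with either, as it must where a scaling moves all genes nearly alike.

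Between 10 and 2 µM all 39 members had the lower mean at 10 µM, with a median log2 fold change of −0.42 beside 0.03 for all tested genes. Of the 39, 30 passed the adjusted p, all lower, beside 11.9% of all tested genes, and 34 had both 10 µM libraries below every 2 µM library, beside 24.9%. The rule of the study took 8, beside 1.59%. The order of the group means named by the rule, 2 µM over 0 µM over 10 µM, held for 28 of the 39 members, beside 21.7% of all tested genes. The comparisons share libraries with each other (both comparisons with untreated MEFs use the same 0 µM libraries), so their values are set side by side and their likeness is not taken as a result.

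**Figure D2:**
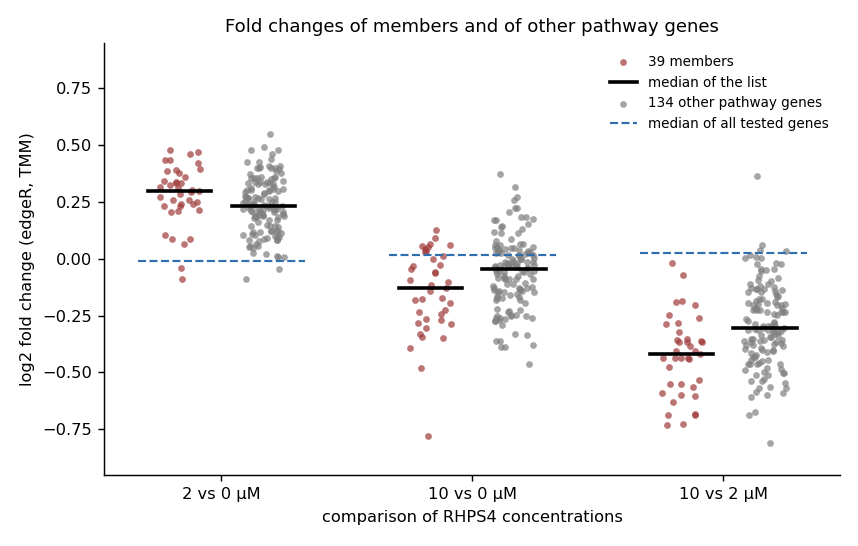
Log2 fold change (edgeR with TMM) of each member (red points) and of each of the 134 other pathway genes (grey points) in the 3 comparisons of RHPS4 concentrations, with the median of each list as a black bar and the median of all tested genes as a dashed line. The bars of the members stand at 0.30, −0.13 and −0.42 and those of the other pathway genes at 0.23, −0.04 and −0.30.

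Since the members were listed for a shared pattern, the 250 bases before their annotated starts were searched for a pair of sequence features. RefSeq promoter windows of GRCm38.p6 were matched for 32 members, and the other 7 are Bop1, Dcaf13, Fbl, Npm1, Rrp12, Rrs1 and Tcof1. The letters CACGTG, the canonical E-box that Myc with its partner Max can bind and that reads alike on both strands, stood in the windows of 3 of 32 members (9.38%), of 10 of 111 other pathway genes (9.01%), of 9.67% of the 10688 tested genes with a window and of 6.86% of all 27025 genes with one. The 3 member windows are printed below from 5′ to 3′ on the strand of the gene, because they hold the only canonical E-boxes found among the members, and capitals mark the E-box. The window of Nop2 is chr6:125131633-125131882 on the plus strand, with its E-box 60 bases before the start. That of Rrn3 is chr16:13780449-13780698 on the plus strand, with E-boxes 215 and 48 bases before the start. That of Utp18 is chr11:93885767-93886016 on the minus strand, with its E-box 20 bases before the start.
Nop2: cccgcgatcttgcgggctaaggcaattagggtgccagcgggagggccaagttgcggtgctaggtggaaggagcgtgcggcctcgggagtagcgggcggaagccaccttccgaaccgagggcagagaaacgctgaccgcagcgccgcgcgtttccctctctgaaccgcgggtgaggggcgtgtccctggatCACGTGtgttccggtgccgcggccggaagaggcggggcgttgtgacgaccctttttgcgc
Rrn3: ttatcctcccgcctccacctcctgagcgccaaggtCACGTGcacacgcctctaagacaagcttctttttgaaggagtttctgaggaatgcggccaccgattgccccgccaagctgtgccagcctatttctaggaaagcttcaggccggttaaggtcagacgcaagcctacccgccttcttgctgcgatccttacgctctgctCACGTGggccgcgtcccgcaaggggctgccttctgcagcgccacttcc
Utp18: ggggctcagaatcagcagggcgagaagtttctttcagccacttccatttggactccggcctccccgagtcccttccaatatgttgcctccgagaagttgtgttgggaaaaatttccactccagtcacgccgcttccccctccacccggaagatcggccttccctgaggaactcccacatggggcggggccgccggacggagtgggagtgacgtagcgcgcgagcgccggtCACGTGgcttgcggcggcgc
The share among the members was close to that among all tested genes, with no test made.

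The other feature was a stretch that could form a G-quadruplex, the structure that RHPS4 binds, written as 4 runs of GGG with 1 to 7 bases of any kind between runs and searched on both strands. It was found in the windows of 6 of 32 members (18.8%), namely Gnl3, Ncl, Nhp2, Ubtf, Utp15 and Wdr43, of 18.9% of the other pathway genes, of 27.9% of the tested genes and of 18.4% of all genes with a window. In all 6 members the runs lay on the strand opposite to the gene, where 11.7% of the other pathway genes and 15.1% of the tested genes had them. In 0 members they lay on the strand of the gene, against 7.21% and 15.5%. In the windows as printed they read as runs of CCC, and none of the 3 genes with an E-box was among the 6. The windows of Wdr43 and Nhp2 are shown because these are the 2 of the 6 members with the lowest ratio of 10 to 2 µM, with the stretch in capitals. The window of Wdr43 is chr17:71615965-71616214 on the plus strand and that of Nhp2 is chr11:51619523-51619772 on the plus strand.
Wdr43: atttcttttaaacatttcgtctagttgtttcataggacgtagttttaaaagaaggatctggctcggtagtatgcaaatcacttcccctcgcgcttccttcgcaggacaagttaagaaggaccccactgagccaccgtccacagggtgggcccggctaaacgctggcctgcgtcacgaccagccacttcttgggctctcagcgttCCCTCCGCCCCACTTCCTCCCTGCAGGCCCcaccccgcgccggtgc
Nhp2: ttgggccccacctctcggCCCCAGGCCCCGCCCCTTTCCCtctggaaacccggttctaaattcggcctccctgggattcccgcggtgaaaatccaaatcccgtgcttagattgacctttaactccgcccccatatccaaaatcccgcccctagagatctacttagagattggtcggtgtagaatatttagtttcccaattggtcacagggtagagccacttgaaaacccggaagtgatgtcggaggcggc
A match of letters is a description and not a measured structure or binding site.

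Of the 7 members that make up Pol I or guide it to its promoter, all had the higher mean at 2 µM than at 0 µM, and all had the lower mean at 10 µM than at 2 µM. Polr1b, the second-largest catalytic subunit, stood out most clearly. Its levels were 95.5, 91.8 and 90.5 CPM at 0 µM, 129, 124 and 122 CPM at 2 µM and 92.6 and 92.3 CPM at 10 µM. The 2 µM libraries lay above all others and the 10 µM libraries lay inside the untreated range, with a log2 fold change of 0.43 (standard error, SE, 0.0632) from 0 to 2 µM and of −0.43 (SE 0.0714) from 2 to 10 µM. Polr1a, the largest subunit, had 216, 202 and 195 CPM at 0 µM, 248, 244 and 233 CPM at 2 µM and 179.6 and 167 CPM at 10 µM, so that the 3 groups did not overlap. Its log2 fold change was 0.24 (SE 0.0686) at 2 µM and −0.24 (SE 0.0772) at 10 µM against untreated MEFs.

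Rrn3, the factor that carries Pol I to the promoter and whose promoter window with its E-boxes is printed above, had 167, 146 and 151 CPM at 0 µM, 183, 174 and 186 CPM at 2 µM and 147 and 149.7 CPM at 10 µM. Only the 2 µM libraries stood apart. Ubtf, which binds along the ribosomal DNA, had 132, 118 and 122 CPM at 0 µM, 154, 147 and 135 CPM at 2 µM and 114 and 112 CPM at 10 µM, an order without overlap. Tcof1 encodes treacle, which couples pre-rRNA transcription with modification. It had 107, 128 and 130.2 CPM at 0 µM, 143, 144 and 147 CPM at 2 µM and 124 and 92.4 CPM at 10 µM, so that the second 10 µM library lay below every other library and the first lay inside the untreated range. Polr1e, a subunit specific to Pol I, had 19.2 ± 2.91 (SD, n = 3), 23.4 ± 2.60 (SD, n = 3) and 19.1 ± 1.38 CPM (SD, n = 2). Polr1c, a subunit that Pol I shares with RNA polymerase III, varied least between concentrations, with 47.9 ± 5.46 (SD, n = 3), 51.2 ± 2.21 (SD, n = 3) and 48.8 ± 1.07 CPM (SD, n = 2), differences within the spread between libraries.

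The box C/D snoRNP, which carries 2′-O-methylation to sites on the rRNA, has 3 core proteins among the members. Nop56 (chr2:130274430-130279313 in GRCm38) had 341, 290.3 and 285 CPM at 0 µM, 424, 405 and 397 CPM at 2 µM and 243 and 250.5 CPM at 10 µM. No library of one concentration reached the range of another, and the level at 10 µM was 39.6% below that at 2 µM, a log2 fold change of −0.73 (SE 0.0909). Nop58, its partner in the core, had 203, 167 and 166 CPM at 0 µM, 265, 230.4 and 227 CPM at 2 µM and 159 and 169 CPM at 10 µM, where the 10 µM libraries overlapped the untreated ones. Fibrillarin (Fbl), the methyltransferase of the complex, did not follow its partners. It had 19.4, 23.5 and 25.0 CPM at 0 µM, 19.7, 22.1 and 30.4 CPM at 2 µM and 17.3 and 25.5 CPM at 10 µM, with all groups overlapping and a log2 fold change of 0.09 (SE 0.175) at 2 µM. Whether Fbl differed in its change from Nop56 and Nop58 was not tested.

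The box H/ACA snoRNP, which turns uridines of the rRNA into pseudouridines, is represented by all 4 core proteins. Dkc1, dyskerin, the pseudouridine synthase itself, had 146, 135 and 135 CPM at 0 µM, 178, 172 and 168 CPM at 2 µM and 117 and 111 CPM at 10 µM, without overlap between groups. Nhp2 had 93.1, 78.3 and 79.6 CPM at 0 µM, 114, 106 and 107 CPM at 2 µM and 66.3 and 74.9 CPM at 10 µM, again without overlap. Gar1, which binds the catalytic core, was not higher at 2 µM. It had 14.8, 18.3 and 21.3 CPM at 0 µM, 15.9, 17.2 and 18.7 CPM at 2 µM and 12.2 and 9.21 CPM at 10 µM. The 2 µM libraries lay inside the untreated range, and both 10 µM libraries lay below every other library, with the lowest log2 fold change of all members against untreated MEFs, −0.78 (SE 0.164). Nop10 had 55.9 ± 11.8 (SD, n = 3), 65.5 ± 4.62 (SD, n = 3) and 57.6 ± 10.8 CPM (SD, n = 2), which did not separate.

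Among the nucleolar chaperones and scaffolds, Nolc1 followed the pattern most closely. This protein, also known as Nopp140, binds snoRNPs on their way to the nucleolus. Its levels were 202, 192 and 181 CPM at 0 µM, 250.0, 228 and 232 CPM at 2 µM and 166 and 149 CPM at 10 µM, without overlap. Npm1, nucleophosmin, the most abundant member, had 2325, 1733 and 1757 CPM at 0 µM, 2636, 2186 and 2137 CPM at 2 µM and 1762 and 1661 CPM at 10 µM. The first untreated library of Npm1 reached into the 2 µM range. Only uniquely mapped fragments were counted, so reads that fit its processed copies elsewhere in the genome equally well would be missing. Ncl, nucleolin, a main RNA-binding protein of the nucleolus, varied widely, with 355, 466 and 544 CPM at 0 µM, 373, 397 and 557 CPM at 2 µM and 366 and 328 CPM at 10 µM. Mybbp1a, a repressor of Pol I transcription that also acts in rRNA processing, had 366, 359 and 404 CPM at 0 µM, 333, 364 and 483 CPM at 2 µM and 266 and 329 CPM at 10 µM. For Ncl and Mybbp1a the log2 fold changes at 2 µM were −0.04 (SE 0.165) and 0.06 (SE 0.129), both smaller than their SE, and at 10 µM they were −0.39 (SE 0.187) and −0.34 (SE 0.146).

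The 13 members that act on the small subunit all had the higher mean at 2 µM than at 0 µM. Of them, 10 had every 2 µM library above every untreated library, beside 12.7% of all tested genes. Rrp9, a protein of the snoRNP that guides the first cuts of the pre-rRNA, had the highest log2 fold change of all members, 0.48 (SE 0.0755). Its levels were 25.0, 23.7 and 24.0 CPM at 0 µM, 34.1, 34.2 and 33.0 CPM at 2 µM and 24.2 and 25.8 CPM at 10 µM, so that it was back near the untreated level at 10 µM. Rrp12, which takes part in the export of pre-ribosomes, had 59.6, 59.9 and 55.3 CPM at 0 µM, 83.9, 80.1 and 76.4 CPM at 2 µM and 50.9 and 45.5 CPM at 10 µM. It went below the untreated range at 10 µM, and its log2 fold change from 2 to 10 µM, −0.73 (SE 0.0854), was the lowest of all members beside that of Nop56.

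Wdr43, a scaffold of the early processome, had 241, 216 and 214 CPM at 0 µM, 291, 276 and 279 CPM at 2 µM and 180.5 and 170.1 CPM at 10 µM. Bysl, an assembly factor of the late small subunit, had 39.7, 45.3 and 38.2 CPM at 0 µM, 51.7, 50.6 and 46.7 CPM at 2 µM and 35.0 and 30.2 CPM at 10 µM. Both kept their 3 groups apart, as Rrp12 did, and were 21.5% and 20.6% lower at 10 µM than in untreated MEFs. The fourth small subunit gene with both 10 µM libraries below every untreated one was Dcaf13, at 76.4 ± 8.01 (SD, n = 3), 91.2 ± 5.81 (SD, n = 3) and 67.1 ± 2.74 CPM (SD, n = 2).

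Wdr75, Utp15, Utp18 and Heatr1, all scaffold proteins of the processome, were higher at 2 µM and near the untreated level at 10 µM. Utp18, whose promoter window holds an E-box, had 74.1, 71.4 and 69.5 CPM at 0 µM, 99.5, 93.3 and 89.6 CPM at 2 µM and 74.6 and 71.6 CPM at 10 µM. Heatr1 had 271, 257 and 254 CPM at 0 µM, 316, 325 and 338 CPM at 2 µM and 245 and 261 CPM at 10 µM. For these 4 genes the log2 fold change at 2 µM ran from 0.32 for Heatr1 to 0.39 for Utp18, and that at 10 µM from −0.04 for Heatr1 to 0.13 for Wdr75, the highest of all members. Utp20, a scaffold, and Ltv1, a factor of the late small subunit, were 16.2% and 25.9% higher at 2 µM, and at 10 µM each had 1 library inside the untreated range and 1 below it. Nob1, the nuclease that makes the final cut of the small subunit rRNA, had 45.05, 30.9 and 35.0 CPM at 0 µM, 45.7, 40.4 and 49.7 CPM at 2 µM and 30.6 and 45.9 CPM at 10 µM. Nob1 and Nop14 did not separate between concentrations, and the log2 fold change of Nop14 from 2 to 10 µM, −0.02 (SE 0.159), was the closest to 0 of all members.

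The large subunit group holds Rrs1, the gene whose pattern the rule names, which helps to bring the 5S ribonucleoprotein into the early large subunit. Rrs1 (chr1:9545408-9547455 in GRCm38, annotated with 1 exon block) had 23.1, 27.2 and 26.4 CPM at 0 µM, 32.6, 30.5 and 31.1 CPM at 2 µM and 23.2 and 19.6 CPM at 10 µM. Every 2 µM library lay above every untreated one, but the first 10 µM library lay just above the lowest untreated library, so the lower level at 10 µM was not without overlap. Its log2 fold changes were 0.29 (SE 0.0935) at 2 µM, −0.26 (SE 0.107) at 10 µM and −0.55 (SE 0.107) between the 2 concentrations. Without Rrs1 the medians of the other 38 members were 0.30, −0.12 and −0.41. Leaving out 1 gene can move such a median only to a neighbouring value, so nothing is read from this.

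Nop2, an rRNA methyltransferase, had 151, 129 and 125 CPM at 0 µM, 199, 184 and 178 CPM at 2 µM and 125 and 128 CPM at 10 µM. Its 2 µM libraries stood apart, with a log2 fold change of 0.47 (SE 0.0832), and at 10 µM one library lay just below the untreated range and the other inside it. Gnl3, nucleostemin, had 149, 141 and 141 CPM at 0 µM, 186, 179 and 188 CPM at 2 µM and 139 and 143 CPM at 10 µM. Gtpbp4, a nucleolar GTPase, had 221, 185 and 185 CPM, then 257, 235 and 229 CPM, then 210.1 and 208 CPM. At 2 µM both lay above every untreated library. At 10 µM Gnl3 had 1 library inside the untreated range and 1 below it. Both Gtpbp4 libraries lay inside that range, above 2 of its 3 untreated libraries. Nop16 had 86.9, 74.8 and 75.5 CPM at 0 µM, 104, 103 and 92.2 CPM at 2 µM and 68.4 and 69.4 CPM at 10 µM, without overlap.

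Pes1, Bop1 and Wdr12 form one complex that processes the precursor of the large subunit rRNAs. Bop1 had 109, 104 and 104 CPM at 0 µM, 126, 124 and 117 CPM at 2 µM and 79.1 and 72.6 CPM at 10 µM. At 10 µM it was 28.4% lower than in untreated MEFs, a log2 fold change of −0.48 (SE 0.0774), the lowest of the large subunit members. Pes1 had 174, 140.0 and 139 CPM at 0 µM, 179.6, 175 and 169 CPM at 2 µM and 123 and 134 CPM at 10 µM, with the first untreated library inside the 2 µM range. Wdr12 had 56.9, 44.5 and 48.8 CPM at 0 µM, 61.6, 65.3 and 62.5 CPM at 2 µM and 42.9 and 52.4 CPM at 10 µM. Against untreated MEFs the log2 fold changes of Pes1 and Wdr12 at 10 µM were −0.23 (SE 0.103) and −0.06 (SE 0.114), so that the 3 partners had unequal values there, a difference that was not tested.

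**Figure D3:**
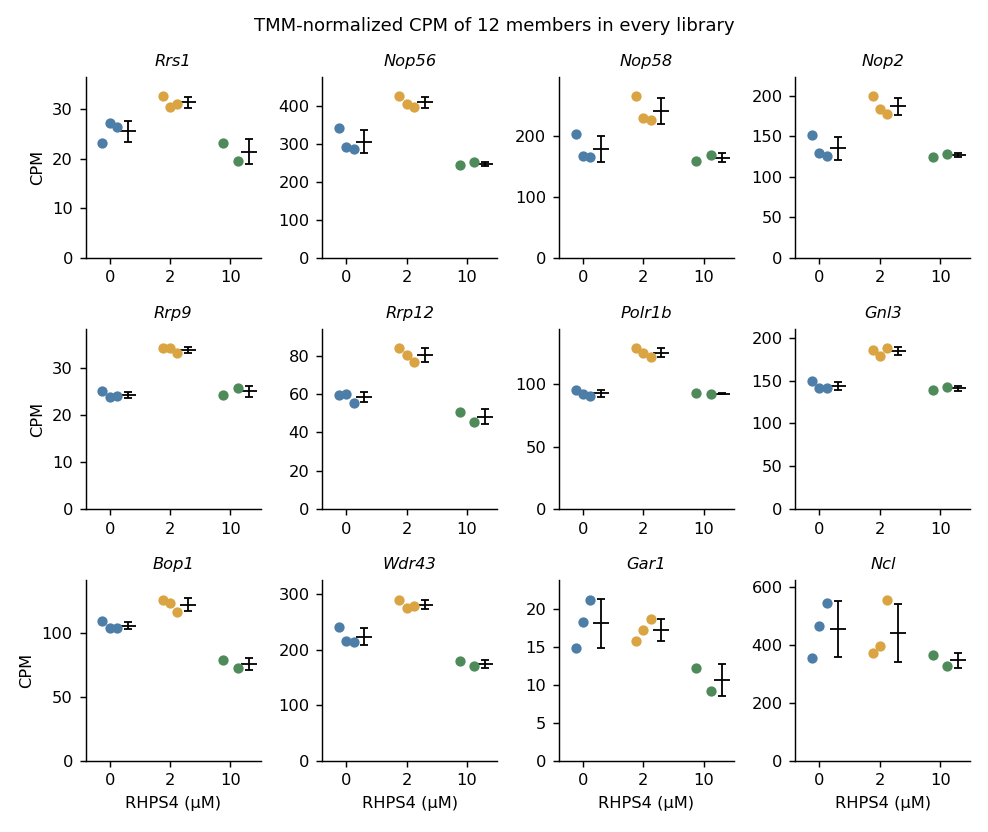
TMM-normalized CPM (vertical axes, from 0) of 12 members at 0, 2 and 10 µM RHPS4 (horizontal axes), with 1 point per library and a bar for the mean with its SD (n = 3, 3 and 2). In 10 of the panels the 2 µM libraries stand above the others, Gar1 is low at 10 µM alone, and the Ncl libraries spread widely within a group at 0 and 2 µM.

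The members differed in level and in spread. Per kilobase of annotated exon, untreated MEFs had 727 CPM of Npm1, followed by Nop56 with 74.5, Nhp2 with 73.0 and Mybbp1a with 64.9, and at the low end 5.37 of Fbl, 4.92 of Polr1e and 4.19 of Wdr12. Spearman's rho over the 39 genes was taken between this untreated level per kilobase and the log2 fold change. It was −0.11 for 2 against 0 µM, −0.31 for 10 against 0 µM and −0.20 for 10 against 2 µM. The untreated level itself enters the fold changes against 0 µM, so no relation is read from these values. They are a description across genes that share their libraries. The coefficient of variation of the 39 members across the untreated libraries ran from 2.74% to 21%, with a median of 8.58%. Within every concentration the libraries of Gar1, Ncl and Tcof1 were in the order of their total counts, and those of Nop56, Nop58, Nop2, Nop10 and Pes1 were in the reverse order, 7.69% and 12.8% of the members beside 6.58% and 3.60% of all tested genes. The part of library depth in these values was not tested.

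The 134 other genes of the pathway were all tested and lay mostly on the same sides. They were measured in the same 8 libraries as the members, so neither list is taken as support for the other. At 2 µM 132 of them had the higher mean, with a median log2 fold change of 0.23, and 22 rose, which is 16.4% of the list beside the 1.51% of all tested genes called higher, while 0 fell, beside 2.65% called lower. At 10 µM against untreated MEFs the median was −0.04, 5 genes fell and 0 rose, 3.73% beside the 7.11% called lower and 6.81% called higher among all tested genes. Between 2 and 10 µM the median was −0.30, 126 had the lower mean, and 64 fell while 0 rose, 47.8% beside 11.9% called lower and 11.5% called higher. None passed the rule of the study at 2 µM or at 10 µM against untreated MEFs. At 2 µM that rule took 0.119% of all tested genes as higher and 0.378% as lower, and at 10 µM it took 1.14% as lower. Between 2 and 10 µM 6 of the other pathway genes passed it, all lower, beside 1.59% of all tested genes.

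The counts depended on single libraries, as did those over all tested genes. The 22 genes that rose at 2 µM were 70 without the first 0 µM library, and 2, 1, 2, 0 and 8 without the second 0 µM, the third 0 µM, the first 2 µM, the second 2 µM and the third 2 µM library. The 5 genes called at 10 µM, all lower, were 12 without the first 0 µM library, of which 1 was higher. They were 2, 0 and 1 without the second 0 µM, the third 0 µM and the second 2 µM library. Over all tested genes the 1017 called lower became 1718, 637, 522 and 724 in these fits. The 64 genes called between 2 and 10 µM, all lower, were 42 and 38 without the first and second 2 µM library. Over all tested genes the 1700 called lower became 1177 and 1000. Leaving out the first or the second 10 µM library leaves 1 at 10 µM. The median of the 134 genes was then −0.05 and −0.10 against untreated MEFs, and −0.33 and −0.35 against 2 µM. Total counts in place of TMM shift the median of all tested genes to 0.07, 0.23 and 0.16. With them the calls were 72 higher at 2 µM, 31 higher at 10 µM, and 1 higher and 28 lower between them. Of the 14296 tested genes, 1065, 3766 and 2832 were then called higher and 302, 327 and 774 lower. The direction against untreated MEFs at 10 µM thus depended on the scaling.

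By role, 13 of the 49 large subunit genes, 6 of the 44 small subunit genes, 2 of the 18 nucleases and exosome subunits, 1 of the 14 Pol I subunits and factors and 0 of the 9 snoRNP assembly factors rose at 2 µM. Between 2 and 10 µM, 27, 21, 7, 5 and 4 of these fell. Ddx31, a putative RNA helicase of the nucleolus, had 26.6, 27.1 and 25.6 CPM at 0 µM, 35.5, 37.2 and 38.4 CPM at 2 µM and 24.7 and 25.4 CPM at 10 µM. It rose by a log2 fold change of 0.49 (SE 0.0752, adjusted p = 0.00679) and fell by 0.57 (SE 0.0856, adjusted p = 0.00108) from 2 to 10 µM. Rrp8, an rRNA methyltransferase, rose by 0.43 (SE 0.0662, adjusted p = 0.00721), with 47.8 to 49.0 CPM in untreated MEFs and 64.0 to 66.3 CPM at 2 µM. Tsr1, a late factor of the small subunit, rose by 0.43 (SE 0.0788, adjusted p = 0.0174) and fell by 0.69 (SE 0.0898, adjusted p = 0.000461) from 2 to 10 µM. At 2 µM the call of Ddx31 was lost without the third 0 µM or the second 2 µM library (adjusted p = 0.0552 and 0.0514), that of Rrp8 without the second 2 µM library (0.0545), and that of Tsr1 without the second 0 µM, the third 0 µM or the first or second 2 µM library (0.0761 to 0.106).

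Urb2, a nucleolar factor of the large subunit, was called in all 3 comparisons with all libraries. It had 88.7, 93.2 and 89.7 CPM at 0 µM, 110.3, 111 and 114 CPM at 2 µM and 74.4 and 76.7 CPM at 10 µM. Its log2 fold changes were 0.30 (SE 0.0624, adjusted p = 0.0270) at 2 µM and −0.26 (SE 0.0706, adjusted p = 0.0312) at 10 µM against untreated MEFs, and −0.56 (SE 0.0711, adjusted p = 0.000387) between them. The other genes that fell at 10 µM against untreated MEFs were Wdr46, Urb1, Utp3 and Utp4 (Cirh1a in the files), with log2 fold changes from −0.39 to −0.27 and adjusted p values from 0.0151 to 0.0446. All 5 calls at 10 µM were lost without the third 0 µM library, without the second 10 µM library and with total counts, where the adjusted p of Urb2 was 0.0860, 0.0976 and 0.655. That of Urb2 was also lost without the second 0 µM, the first 10 µM or the second 2 µM library (0.0613 to 0.0944), and in the fit of both groups alone (0.0849). The call of Urb2 at 2 µM was lost without the second 0 µM, the third 0 µM or any single 2 µM library (0.0677 to 0.143). Polr1g (Cd3eap in the files), a subunit of Pol I, had 24.1, 17.8 and 16.6 CPM at 0 µM, 29.0, 25.5 and 25.4 CPM at 2 µM and 16.1 and 14.2 CPM at 10 µM, and fell between 2 and 10 µM by 0.81 (SE 0.152, adjusted p = 0.00365). In the same comparison Snu13 (Nhp2l1 in the files), the box C/D protein that binds the snoRNA first, fell by 0.54 (SE 0.0954, adjusted p = 0.00259), and Exosc2, a cap subunit of the RNA exosome, fell by 0.54 (SE 0.0975, adjusted p = 0.00294).

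**Figure D4:**
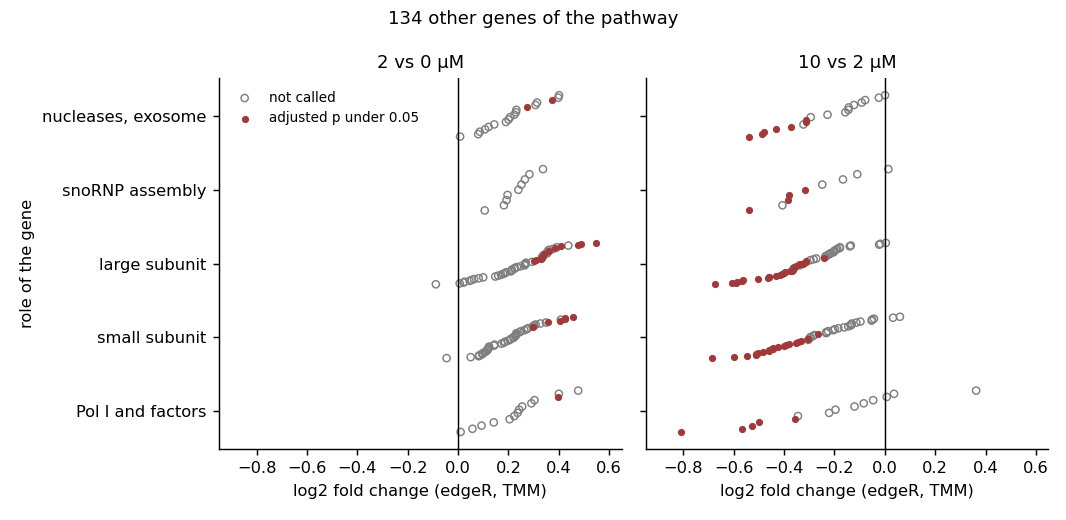
Log2 fold change (horizontal axes) of the 134 other pathway genes by role (rows), from 0 to 2 µM on the left and from 2 to 10 µM on the right, with filled red points for an adjusted p under 0.05 from edgeR and open points for the rest. On the left 132 points lie right of 0 and 22 are filled, none of them among the 9 snoRNP genes, and on the right 126 lie left of 0 and 64 are filled, with some in every role.

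Genes of the Myc network were looked at because Myc is a known activator of this pathway and the Mxd proteins and Mxi1 oppose it at the same DNA sites. Myc itself had 26.2, 36.0 and 39.3 CPM at 0 µM, 28.6, 32.9 and 39.6 CPM at 2 µM and 42.9 and 33.0 CPM at 10 µM, with overlapping groups, and adjusted p values of 0.968, 0.608 and 0.541 in the 3 comparisons. Of the 11 network genes tested, 3 fell at 2 µM, beside 2.65% of all tested genes, and these were Mxd1, Mxd4 and Mxi1. Mxd1 had 11.2, 10.5 and 11.9 CPM at 0 µM, 7.67, 7.66 and 7.25 CPM at 2 µM and 17.6 and 16.5 CPM at 10 µM. It fell by 0.58 (SE 0.105, adjusted p = 0.0152) at 2 µM and rose by 0.60 (SE 0.105, adjusted p = 0.00380) at 10 µM, both against untreated MEFs.

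Mxi1 had 43.4, 39.2 and 40.9 CPM at 0 µM, 26.9, 26.8 and 26.1 CPM at 2 µM and 37.6 and 44.3 CPM at 10 µM. It fell by 0.63 (SE 0.0858, adjusted p = 0.00344) at 2 µM, which passed the rule of the study, and from 2 to 10 µM it rose by 0.62 (SE 0.0948, adjusted p = 0.00114). Mxd4 had 26.3, 24.7 and 24.1 CPM at 0 µM, 19.0, 17.4 and 17.5 CPM at 2 µM and 28.0 and 28.0 CPM at 10 µM, and fell by 0.48 (SE 0.0826, adjusted p = 0.0122) at 2 µM. By the rule of the study Mxd1, Mxd4 and Mxi1 were higher at 10 than at 2 µM, beside 3.92% of all tested genes. All 3 had their lowest level at 2 µM, where most members had their highest. Mxd3 did not, with log2 fold changes of 0.09 (SE 0.0910) from 0 to 2 µM and −0.24 (SE 0.104) from 2 to 10 µM. Whether any of these genes bears on the level of the members was not tested. At 10 µM both libraries of Mxd1 and of Mxd4 lay above the untreated range, as for 22.9% of all tested genes, while Mxi1 overlapped it. The log2 fold change of Mxd4 there was 0.17 (SE 0.0883, adjusted p = 0.235 by edgeR) and did not pass. The call of Mxd1 at 2 µM was lost without the third 0 µM library (adjusted p = 0.108) or without any single 2 µM library (0.0563 to 0.0792), and that of Mxd4 without the second 0 µM, the third 0 µM or the second 2 µM library (0.0519 to 0.0869). Mycn had 2.53 to 2.59 CPM at 0 µM, 2.53 to 3.51 CPM at 2 µM and 0.672 and 0.935 CPM at 10 µM, and fell by 1.68 (SE 0.270, adjusted p = 0.00249) at 10 µM. The other 7 network genes, Myc, Mycl, Max, Mnt, Mxd3, Mga and Mlx, passed in no comparison.

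**Figure D5:**
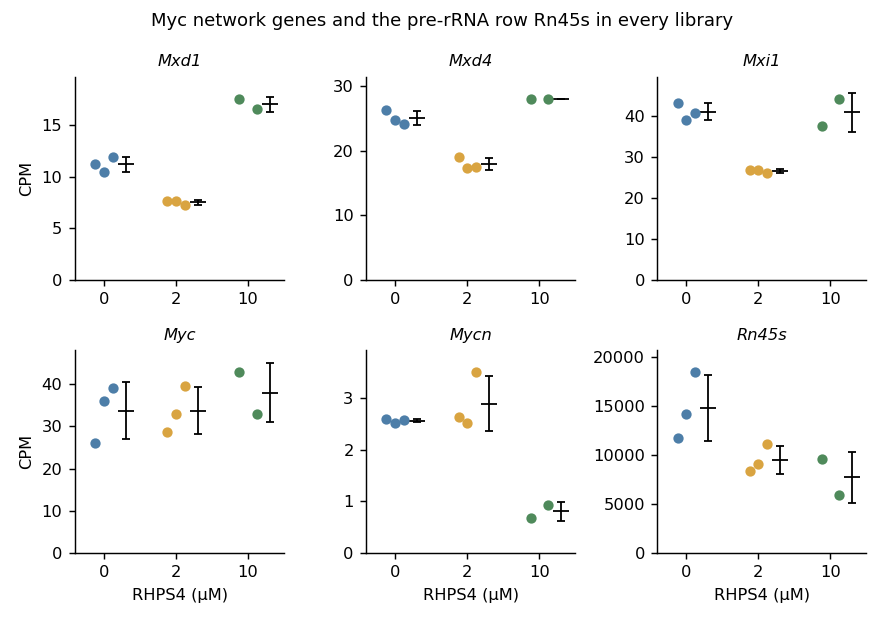
TMM-normalized CPM (vertical axes, from 0) at 0, 2 and 10 µM RHPS4 (horizontal axes) of 5 Myc network genes and of the row Rn45s. Reads of Rn45s can include mature rRNA left after depletion. Each point is 1 library, and a bar gives the mean with its SD (n = 3, 3 and 2). Mxd1, Mxd4 and Mxi1 are lowest at 2 µM, the Myc libraries overlap, and the Rn45s libraries are highest at 0 µM.

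The product of Pol I could be seen only in part, since nuclear rRNA was depleted before sequencing. The counts hold 1 row for it, Rn45s, named for the 45S pre-rRNA transcript, which took 0.646% to 1.74% of the counts of a library. Mature rRNA left after depletion and its precursor cannot be told apart in this row. Its level is therefore not a measure of Pol I output. Rn45s had 11718, 14131 and 18418 CPM at 0 µM, 8384, 9009 and 11097 CPM at 2 µM and 9529 and 5877 CPM at 10 µM. Every treated library thus lay below every untreated one. The mean difference on the log2 scale was −0.62 at 2 µM and −0.95 at 10 µM against untreated MEFs, with two-sided exact permutation p values of 0.1 and 0.2, the smallest that 3 against 3 and 2 against 3 libraries allow, and of 0.3 for both after Benjamini-Hochberg adjustment over the 3 comparisons. Between 10 and 2 µM the difference was −0.33 (exact permutation p = 0.6). The edgeR fit across all genes gave Rn45s an adjusted p of 0.0985 at 2 µM. Without the first 0 µM library it was 0.0236. At 10 µM it was 0.0206 with all libraries. Among fits with more than 1 library in each group, that call was lost without the second or the third 0 µM library (0.0502 and 0.0661). It was also lost in the fit of both groups alone (0.0532). Without the second 10 µM library, which leaves 1 library at 10 µM, the log2 fold change of Rn45s there was −0.66. No adjusted p is given for that fit, so the call cannot be said to hold without this library. Within every concentration its libraries were in the order of their total counts, and how far depletion left this row to the same degree in each library was not tested.

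Several members also carry snoRNAs in their introns. In the GRCm38 annotation 10 snoRNA rows of the files lie within 5 members (Gnl3, Ncl, Nop56, Nop58 and Wdr43), with 1 to 85 counts per library. Of the 9 tested, 8 passed in no comparison. Snord110, at chr2:130275506-130275573 in an intron of Nop56, had 10, 18 and 26 counts at 0 µM, 14, 16 and 22 counts at 2 µM and 6 and 2 counts at 10 µM. It fell at 10 µM, with a log2 fold change of −1.87 (SE 0.409, adjusted p = 0.0126) against untreated MEFs and of −2.25 (SE 0.403, adjusted p = 0.00275) against 2 µM. These values rest on few counts, and the call against untreated MEFs was lost without the second 10 µM library (adjusted p = 0.113). Snord57, in another intron of Nop56, had a log2 fold change of −0.82 (SE 0.290, adjusted p = 0.0864) at 10 µM and did not pass.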

How the data were processed

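Total RNA of MEFs at 0, 2 and 10 µM RHPS4 (3, 3 and 2 libraries) was depleted of ribosomal RNA and sequenced from strand-specific libraries. The deposited values are raw counts per gene in 1 file per library. According to the study's methods and the submitters' processing notes, the authors checked reads with FastQC, trimmed them with Trim Galore and cutadapt, aligned them to mm10 (GRCm38) with STAR 2.5.2a and counted uniquely mapped fragments with featureCounts. The annotation and strand setting of the counting are not given in the sources used here, so reads of overlapping genes could be split. Reads that fit near-identical copies equally well would be left out.

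Genes were filtered with filterByExpr and all 8 libraries were fitted together by edgeR 4.0.16 (R 4.3.3) with TMM factors and the quasi-likelihood test, 1 coefficient per concentration. P values were adjusted by Benjamini-Hochberg over the 14296 genes tested. A gene was called at an adjusted p under 0.05, with the rule of the study (adjusted p under 0.01, fold over 1.5) beside it. SE is the absolute log2 fold change divided by the square root of F. DESeq2 1.42.0, which the study used, other scalings and filters, fits of 2 groups, a replicate block and leaving out each library were alternatives. The procedure was tested on simulated data. The members and lists were chosen with earlier results of these data known. Genes to be named were all members, the 3 other pathway genes of each role with the smallest p in each comparison and those past the rule of the study, the tested Myc network genes, Rn45s and the snoRNAs hosted by members, and the text gives examples from these. Positions are from GENCODE for GRCm38, and promoters from RefSeq (GRCm38.p6). Rn45s was compared by exact permutation tests in Python 3.11.15 with numpy 2.4.6 and scipy 1.17.1, and tables and plots used pandas 2.3.3 and matplotlib 3.10.9. The alternatives for the permutation comparison of Rn45s were added after seeing the data. Total counts per library at 0 µM came to 10455965, 21057338 and 26688121. Those at 2 µM came to 11391061, 12183639 and 17066448, while the pair at 10 µM held 15063449 and 12643261 counts.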

Additional observations from a re-analysis of the deposited data

Results flagged for a closer look

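For 9 genes the log2 fold changes at 2 and at 10 µM RHPS4, both against the same untreated libraries, had opposite signs, and the test of the difference between both concentrations passed the rule of the study (adjusted p under 0.01 and a fold over 1.5 by edgeR). Among the other pathway genes the log2 fold change from 2 to 10 µM was −0.81 for Polr1g (Cd3eap), −0.69 for Tsr1, −0.67 for Nle1, −0.61 for Ppan, −0.60 for Wdr46 and −0.59 for Urb1. In the Myc network it was −1.88 for Mycn, 1.18 for Mxd1 and 0.65 for Mxd4. Of the 9, Mxd1 alone passed the adjusted p of 0.05 both at 2 and at 10 µM against untreated MEFs, so for the others the opposite signs are of values of which at least 1 did not pass. With total counts in place of TMM the value of Nle1 at 10 µM against untreated MEFs went from −0.13 to 0.0863, while the other 8 genes kept both signs. No outlier test was made within groups of 3, 3 and 2 libraries.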

How the results depend on the processing

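The direction of the members' median held under all alternatives except total counts in place of TMM, where the medians were 0.38 at 2 µM, 0.0895 at 10 µM (reversed) and −0.28 between 2 and 10 µM, and 14 members had the order 2 over 0 over 10 µM. That scaling shifts all genes nearly alike, so the members' position relative to all tested genes (0.31, −0.14 and −0.45) cannot test it. Leaving out 1 library at a time, the members' medians ran from 0.26 to 0.39, from −0.18 to −0.11 and from −0.47 to −0.42.

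Of the 134 other pathway genes, the numbers called in the 3 comparisons (2 with 0, 10 with 0 and 10 with 2 µM) were 22, 5 and 64. They were 72, 31 and 29 with total counts, 0, 0 and 6 by the rule of the study, 30, 9 and 71 by DESeq2, and 0 to 70, 0 to 12 and 34 to 88 without 1 library. With total counts, 1065, 3766 and 2832 of the 14296 tested genes were called higher and 302, 327 and 774 lower. A fit of the 10 and 0 µM groups alone called 1. With the first 10 µM or second 10 µM library left out, the remaining one was assumed to vary like the other groups.

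The replicate block gave 26, 7 and 64, with an adjusted p of 0.0582 for Urb2 and 0.0648 for Urb1 at 10 against 0 µM. Its check did not pair the libraries, since the same-numbered 0 and 2 µM libraries correlated at 0.199, 0.0845 and 0.161. Same-numbered libraries correlated at −0.145 and −0.105 between 0 and 10 µM, and at −0.0212 and −0.0610 between 2 and 10 µM. At 0 and 2 µM 6 of 6 correlated best with their own number, a hint from the data and not from the design. The numbers there also follow the order of total counts, which cannot be told apart from a pairing. The log2 difference of Rn45s stayed negative, from −0.77 to −0.45, −1.33 to −0.63 and −0.72 to −0.02. Of the values of single tested genes under alternatives 1535 kept their side of the threshold, 93 lost and 61 gained the call, and 0 changed sign past it. The causes were not tested.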
